A study of Mus musculus with 4 samples.

Results

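The difference described here is that between untreated MC3T3-E1 cells on day 7 and on day 3, taken from 2 of the 4 arrays of the series. Its members are all genes named by the platform annotation, and 12201 of 19938 such genes were bright enough to be described. MC3T3-E1 is an established line of pre-osteoblasts from mouse calvaria, derived from C57BL/6 mice and bought from ATCC. The study asked how citalopram, a selective serotonin reuptake inhibitor, bears on osteogenesis. Its groups were untreated cells on day 3, untreated cells on day 7, and cells given citalopram at 100 µM (micromol per litre) for the same 3 or 7 days, with 1 array per group. All groups grew in alpha minimum essential medium with antibiotics and 1% fetal bovine serum, from 50000 cells per well of 6-well plates. There were 3 untreated and 3 treated wells, and no source used here says whether the wells were combined. The labels name no osteogenic supplement.

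Pre-osteoblasts are committed precursors that divide, become confluent, and then lay down a matrix rich in type I collagen. Only later, usually under ascorbate and phosphate, do they make alkaline phosphatase and the proteins that hold mineral.

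Values are log2 expression values, and a difference of 1 is a change of 2-fold. A gene was described when its higher control value was at or above the 40th percentile of its array, called the floor (5.99 on both control arrays). With 1 array per group, the difference between the control arrays has no error of its own and carries no p-value, so its precision is limited by how few arrays there are. The second measurement of the same interval is the pair of citalopram arrays, which shares no array with the control pair but is another treatment, not a replicate. The only test is limma, fitted to all 4 arrays with additive terms for treatment and day (two-sided, 1 residual degree of freedom per gene, Benjamini-Hochberg adjustment). Its p-values set the mean day difference of both pairs against the spread between the pairs and a variance shared over genes, and this spread may be technical, since no label says that the cultures were separate experiments. Below, "rose" and "fell" are used only for genes with a limma adjusted p under 0.05. In a bulk culture, fewer cells of a type and less RNA per cell cannot be told apart.

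Most genes differed little between the days. The median difference was -0.01, and 77.2% of genes lay within 0.25 of 0. The control arrays correlated with r = 0.992 over all features. At least 2-fold higher on day 7 were 32 genes (0.262%), and 16 were at least 2-fold lower (0.131%). At 1.5-fold the counts were 142 higher (1.16%) and 138 lower (1.13%). Many of the higher genes make small non-coding RNAs. Among 11614 protein-coding genes, an alternative chosen after seeing the data, 10 were at least 2-fold higher (0.0861%) and 16 lower (0.138%), and 88 (0.758%) and 132 (1.14%) passed 1.5-fold. Just inside the 2-fold limit lay Snord15a (1.00), Ahnak2 (1.03), Ap1s2 (-1.04) and Zfp991 (-1.01), and just outside it Rmrp (1.00), Lrp4 (0.99), Zfp979 (-0.996) and Jam2 (-0.99).

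limma called 163 genes higher on day 7 (1.31% of 12415 tested) and 185 lower (1.49%). At an unadjusted p under 0.05 the counts were 1021 and 1475. Over all features the medians of the deposited arrays were not equal, at 6.50 for control day 3 and 6.60 for control day 7. Over the 19938 named genes, with no floor, the median control difference was 0.001. The split of the calls depended on the scaling. Higher genes made up 46.8% of the calls on the deposited values, 29.7% after quantile normalization (459 higher, 1085 lower) and 10.3% after each array was centred on its median (237 higher, 2057 lower). Median centring moved every control difference by -0.108. Of 24 gene lists whose median was above 0, it turned 14 below 0, and each such list is marked where it is described. No named gene whose difference reached 1.5-fold changed sign under quantile normalization, median centring or cyclic loess.

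**Figure D1:**
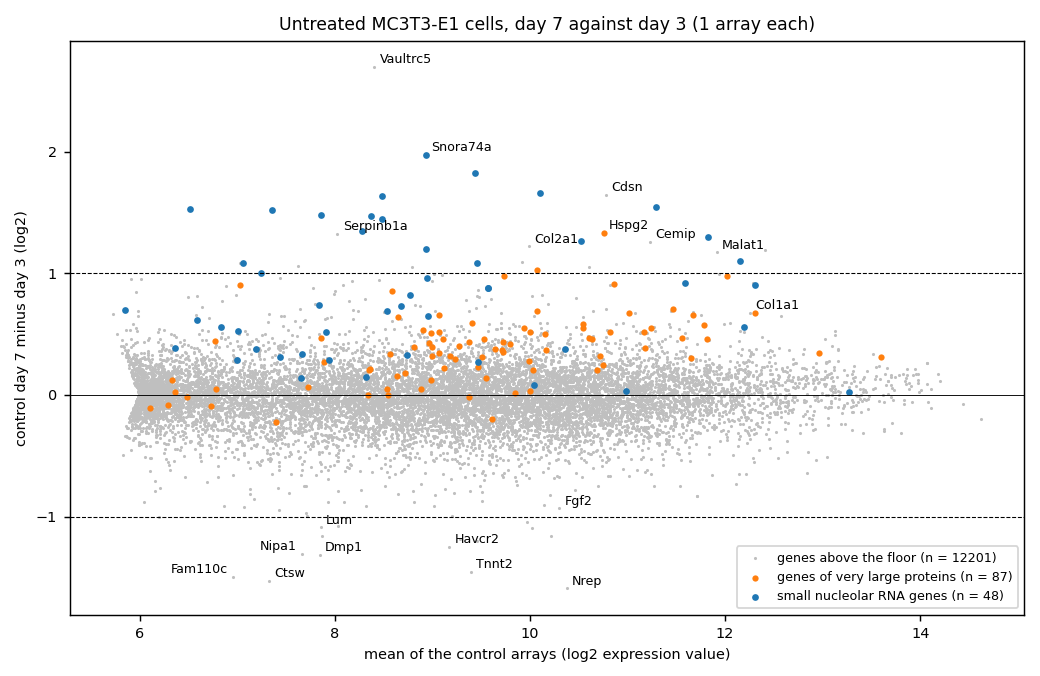
Difference between the control arrays (day 7 minus day 3, log2) against their mean level (log2 expression value) for the 12201 genes above the floor, 1 array per day. Dashed lines mark 2-fold; the 48 small nucleolar RNA genes (blue) all lie above 0 and 79 of 87 genes of very large proteins (orange) do, while most other genes lie near 0. After median centring 45 of the 48 and 71 of the 87 were above 0. The list of very large proteins was written after the values were seen.

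The gene with the highest difference was Vaultrc5, which makes a vault RNA, a short RNA carried by the vault ribonucleoprotein particle. Its log2 value was 7.06 on control day 3 and 9.76 on control day 7, a 6.49-fold rise, and 7.06 and 10.06 on the citalopram arrays (limma adjusted p = 7.47e-05). Both day 7 arrays were thus far above both day 3 arrays. Some other short housekeeping RNAs lay near the top as well. Rpph1, the RNA subunit of ribonuclease P, which trims transfer RNA, rose from 11.82 to 13.01 (limma adjusted p = 0.00228). Rmrp, the RNA of the related ribonuclease MRP, rose from 11.44 to 12.44 (limma adjusted p = 0.00523). Scarna17, a small Cajal body RNA that guides changes to spliceosomal RNA, rose by 1.05 (limma adjusted p = 0.00534). Not every gene of these classes was as high. The lowest of 3 genes typed as ribonuclease P RNA was at -0.01, and Scarna13, another Cajal body RNA, was at 0.19.

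Among protein-coding genes the highest was Cdsn, which encodes corneodesmosin, an adhesion protein known from the outer epidermis. It stood at 9.95 on control day 3 and 11.60 on control day 7, and at 10.52 and 11.80 on the citalopram arrays (limma adjusted p = 0.00144). Hspg2, Serpinb1a, Cemip and Col2a1 followed. Hspg2, the gene of perlecan, a heparan sulphate proteoglycan of basement membranes, rose 2.52-fold, from 10.09 to 11.42, with 10.42 and 11.22 on the citalopram arrays (limma adjusted p = 0.00842). Col2a1, the type II collagen gene best known from cartilage, rose 2.34-fold, from 9.37 to 10.60, with 9.89 and 10.37 under citalopram (limma adjusted p = 0.0397). Adamts5, an aggrecan-cleaving protease, rose from 9.38 to 10.47 (limma adjusted p = 0.0153). Thsd4, which encodes a secreted microfibril-associated protein, rose from 7.09 to 8.15 (limma adjusted p = 0.00228). The levels in each of these cases were lower on both day 3 arrays than on both day 7 arrays.

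Serpinb1a, an intracellular inhibitor of neutrophil-type serine proteases, rose 2.51-fold, from 7.36 to 8.69 (limma adjusted p = 0.00227). Serpinb9b, of the same family, went from 8.26 to 9.31 in control but was at 9.32 on both citalopram arrays, and limma did not call it (adjusted p = 0.21). Cemip, which binds hyaluronan and promotes its breakdown, was 2.40-fold higher in control (10.60 and 11.86) and differed by 0.37 under citalopram, where its day 3 value was already 11.34 (limma adjusted p = 0.0613). For Serpinb9b and Cemip the citalopram day 3 array lay nearer to the day 7 arrays than control day 3 did. Ahnak2, a giant scaffold protein gene, rose by 1.03 on its brightest feature and was higher by 0.64 on the other (limma adjusted p = 0.0032). Lrp4, a co-receptor that binds the bone hormone sclerostin, rose from 8.52 to 9.51 (limma adjusted p = 0.0257).

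The gene with the lowest difference was Nrep, which encodes a small intracellular protein linked to wound repair and TGF-beta signalling. Its value was 11.17 on control day 3 and 9.58 on control day 7, a 3.01-fold fall, and the citalopram pair fell by 1.59 too (limma adjusted p = 0.000551). Dmp1, dentin matrix protein 1, is a mineral-binding phosphoprotein of osteocytes and late osteoblasts. It fell 2.49-fold, from 8.50 to 7.19 in control and by 1.61 under citalopram (limma adjusted p = 0.00111). A pair of genes for muscle-type and actin-binding proteins followed. Tnnt2, the cardiac troponin T gene, fell 2.74-fold, from 10.12 to 8.66 (limma adjusted p = 0.00228). Cotl1, an F-actin-binding protein gene, fell from 10.06 to 8.86 in control and fell by 1.73 under citalopram (limma adjusted p = 0.00228).

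The lowest genes also included Havcr2, Sema7a, Srpx2 and C1qtnf3. Havcr2, the immune checkpoint receptor TIM-3, fell from 9.80 to 8.55 in control and fell by 2.20 under citalopram (limma adjusted p = 0.00523). Sema7a, a membrane-anchored semaphorin, fell from 10.80 to 9.63 (limma adjusted p = 0.00228), and Srpx2, a secreted sushi-repeat protein, from 8.45 to 7.29 (limma adjusted p = 0.00303). C1qtnf3, a C1q-related factor made by cartilage and fat, fell by 1.07 in control and by 1.68 under citalopram (limma adjusted p = 0.00416). Each of these genes was lower on both day 7 arrays than on both day 3 arrays. Lum, which encodes the collagen-binding proteoglycan lumican, went from 8.40 to 7.31 in control, with a difference of -0.36 under citalopram (limma adjusted p = 0.0594). The other genes of the lowest 15 were Ctsw, a cathepsin (-1.53), Fam110c (-1.49), the magnesium transporter gene Nipa1 (-1.31), Prkg2, a cyclic GMP-dependent kinase (-1.18), Zfp931 (-1.09) and Ap1s2, an adaptor subunit of clathrin coats (-1.04). limma called each of these 6 lower, and the other feature of Prkg2 differed by only -0.36.

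**Figure D2:**
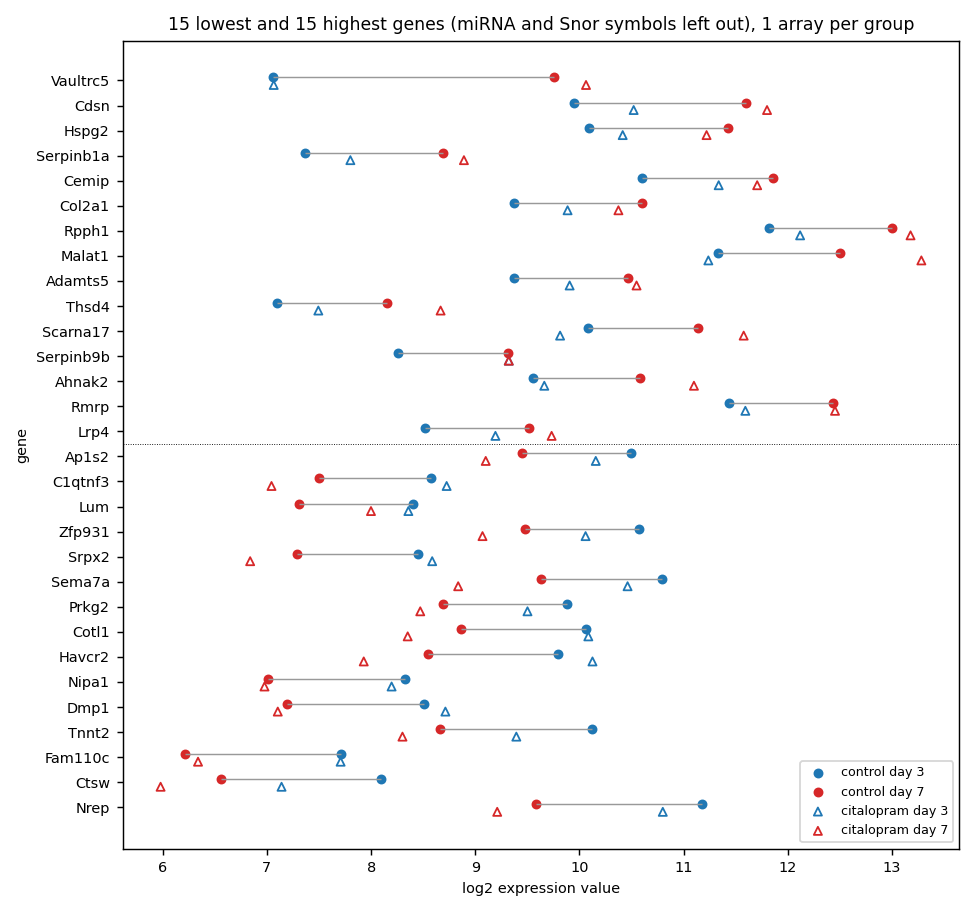
Log2 expression value on each of the 4 arrays (1 per group) for the 15 highest and 15 lowest genes by the control difference, with symbols of microRNA and small nucleolar RNA genes left out; circles joined by a line are the control arrays and triangles the citalopram arrays. Vaultrc5 spans 7.06 to 9.76 in control, and for Serpinb9b both citalopram arrays lie at 9.32, beside the control day 7 value of 9.31.

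The day difference was broadly shared with the citalopram pair. Across the 11977 genes above the floor in both pairs, which are not independent replicates, Pearson's r between the differences was 0.566 and Spearman's rho 0.459, and the sign was shared by 64.9%. Of the 32 genes at least 2-fold higher in control, 30 were higher under citalopram too, 28 of them by at least 1.5-fold, and limma called 29. All 16 genes at least 2-fold lower were lower under citalopram, 14 by at least 1.5-fold, and limma called 15. At 1.5-fold the agreement was weaker. Of 141 higher genes, 130 were higher under citalopram too, 87 of them by at least 1.5-fold (61.7% of the 141). Of 138 lower genes, 128 were lower there, 65 by at least 1.5-fold (47.1% of the 138). From these genes limma called 103 of the 141 and 93 of the 138. Over all genes tested it called 1.31% higher and 1.49% lower. The limma day effect includes the control difference by which these genes were picked, so the call counts are no separate support. In the citalopram pair, by the same floor, 2-fold was passed upward by 53 of 12187 genes (0.435%) and downward by 46 (0.377%), and 1.5-fold by 244 (2%) and 342 (2.81%).

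**Figure D3:**
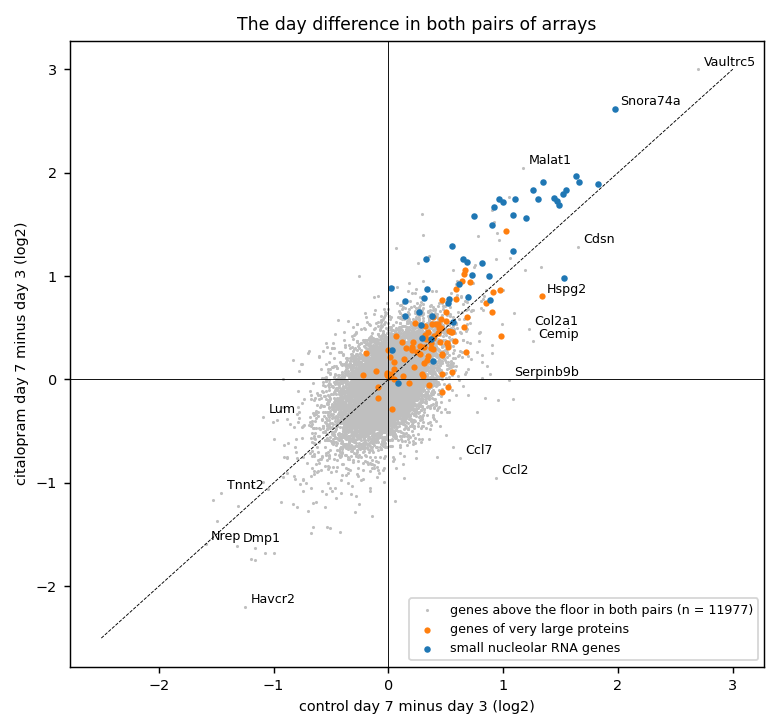
Day 7 minus day 3 (log2) in the citalopram pair against the same difference in the control pair for 11977 genes, 1 array per group; the dashed line marks equal differences. Vaultrc5, Snora74a and Malat1 are high in both pairs, Nrep, Dmp1 and Havcr2 low in both, and Ccl2 and Ccl7 are higher in control and lower under citalopram.

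Small nucleolar RNAs guide the methylation and pseudouridylation of ribosomal RNA and are mostly cut from the introns of host genes. All 48 genes with such a symbol that reached the floor, of 52 measured, were higher on day 7 in control (45 after median centring, 47 after cyclic loess). Of these, 30 passed 1.5-fold and 18 passed 2-fold, with a median of 0.78 in control and 1.15 under citalopram, and limma called 34 higher and 0 lower. Any increase at all was seen in 47.2% of all genes, 1.16% passed 1.5-fold upward and 0.262% passed 2-fold, and limma called 1.31% higher. The highest were Snora74a, from 7.95 to 9.92, Snora73b, from 8.52 to 10.35, Snora73a, from 9.27 to 10.93, Snord53, from 7.67 to 9.30, and Snord104, from 10.52 to 12.06. All these 5 rose (limma adjusted p from 0.000472 to 0.000551). The lowest were Snord82, at 13.26 and 13.28, and Snora7a, higher by 0.04.

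The measured genes that contain 24 of these RNAs differed far less. By their order in RefSeq assembly GRCm38.p6, 24 of 50 small RNA genes (Snor and Scarna symbols) lay inside 1 other measured gene above the floor. There were 21 such hosts in all. Small RNAs with no host, several containing genes or an unmeasured host, such as Snhg3, Snhg4 and Snhg12, were left out. Gas5, Snhg15 and Snhg17, given below, were not among the hosts. In 22 of the 24 the small RNA had the higher difference. The small RNAs had a median of 0.69 and the hosts of 0.05, with hosts between -0.49 and 0.38 and none past 1.5-fold. Snord53 was higher by 1.63 while its host Wdr43, a ribosome biogenesis gene, differed by -0.07. Snora62 was higher by 1.52 and Rpsa, the ribosomal protein gene around it, by 0.11. Among long non-coding RNAs that host small nucleolar RNAs or stay in the nucleus, 6 of 11 measured reached the floor and all 6 were higher (median 0.81, or 0.65 with the mean over features and 0.10 with no floor). Gas5, a growth-arrest transcript, rose from 11.82 to 12.74 (limma adjusted p = 0.0065), though its 4 features ranged from -0.16 to 0.92. Malat1, an abundant RNA of nuclear speckles, rose from 11.33 to 12.50 and by 2.05 under citalopram (limma adjusted p = 0.00534). Lncpint and Snhg15 also rose, as did Snhg17, whose 3 features ranged from 0.16 to 0.96, and Snhg5 was at 0.10. No source used here gives RNA quality values, and whether the RNA samples had a part in the small RNA result was not tested.

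**Figure D4:**
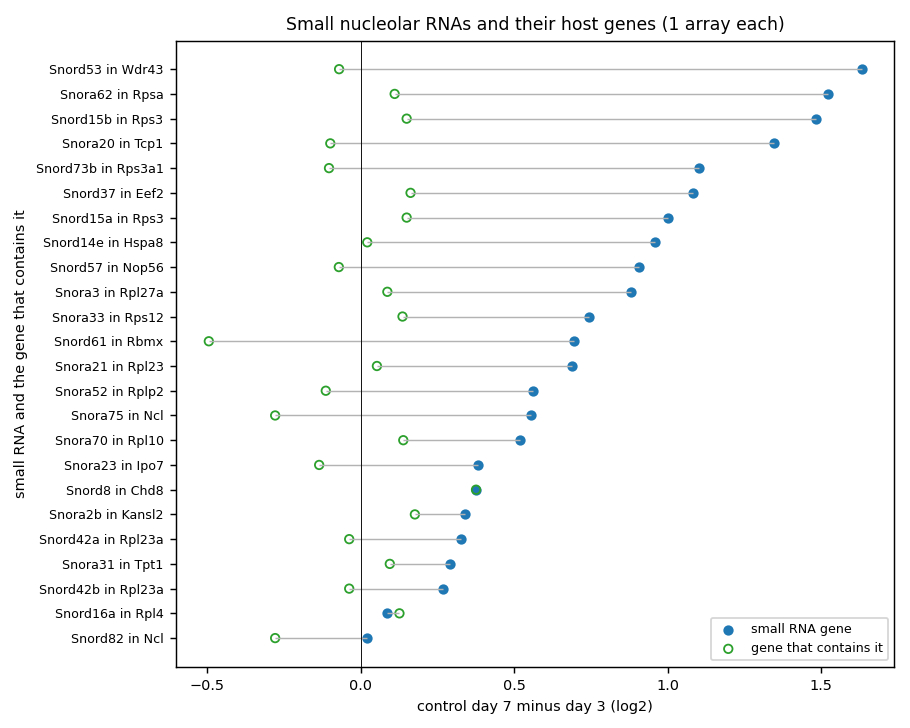
Control day 7 minus day 3 (log2, 1 array per day) for 24 small RNA genes (filled) and the gene that contains each (open). The small RNA lies to the right of its host in 22 of the 24, with medians of 0.69 and 0.05.

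MicroRNAs are short RNAs that pair through their seed with messenger RNAs and lower their output. Features named for microRNA genes were mostly dim: 109 of 296 reached the floor. Of these, 86 were higher on day 7 in control (66 after quantile normalization, 65 after median centring), with a median of 0.16, and 5 passed 1.5-fold. Under citalopram the median was 0.03. limma called 8 higher and 0 lower. Of all genes, 47.2% were higher in control (40.5% after quantile normalization, 27.3% after median centring). Over all genes 1.16% passed 1.5-fold upward, and limma called 1.31% higher. Mir15a, Mir365-1 and Mir677, from among the 5 highest, are printed with both mature arms, because the array features do not separate the arms or the precursor. Sequences are from RefSeq (GRCm38.p6), 5′ to 3′, with the seed, bases 2 to 8, in capitals.
mmu-miR-15a-5p (chr14:61632075-61632096, minus strand): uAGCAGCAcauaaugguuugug
mmu-miR-15a-3p (chr14:61632038-61632059, minus strand): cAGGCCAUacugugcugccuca
mmu-miR-365-3p (chr16:13453895-13453916, plus strand): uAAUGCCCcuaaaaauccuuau
mmu-miR-365-1-5p (chr16:13453855-13453877, plus strand): aGGGACUUuugggggcagaugug
mmu-miR-677-5p (chr10:128085291-128085312, plus strand): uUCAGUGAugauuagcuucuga
mmu-miR-677-3p (chr10:128085335-128085360, plus strand): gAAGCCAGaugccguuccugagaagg
No seed is shared among these arms. Mir15a, of a family known for restraining cell-cycle genes, rose from 7.71 to 8.64 and by 1.16 under citalopram (limma adjusted p = 0.00397). Mir365-1 rose from 6.43 to 7.33 (limma adjusted p = 0.00857) and Mir677 from 6.39 to 7.02 (limma adjusted p = 0.0152). Mir145a, known from smooth muscle, rose from 6.96 to 7.92 (limma adjusted p = 0.00416), and Mir297b from 7.61 to 8.24 (limma adjusted p = 0.0429). All 5 were above the day 3 arrays on both day 7 arrays. The lowest, Mir31, Mir29a, Mir218-1, Mir540 and Mir181b-1, lay between -0.28 and -0.20 and were not called.

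The label of the cells was set against pre-osteoblast markers. Of 13 markers 9 were measured, and the others were not analysed here. Sparc, the osteonectin gene, was at 13.84 and 14.05, Postn, periostin, at 13.31 and 13.07, and Dlx5, a homeobox regulator of bone, at 10.18 and 10.12 on control days 3 and 7. Col1a1 and Col1a2, the type I collagen chains, were bright as well, at 11.92 and 12.59 and at 11.90 and 12.47. Sp7, which encodes osterix, was at 7.79 and 7.71 and Msx2 at 7.32 and 7.31. Alkaline phosphatase (Alpl) lay near the floor on both days, at 6.07 and 6.09, and Ibsp, bone sialoprotein, below it, at 5.52 and 5.44. The cells thus carried bright matrix genes of the osteoblast lineage on both days, with Alpl and Ibsp near or below the floor.

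Regulators of the lineage differed little. Of 16 osteoblast transcription factors and early differentiation genes above the floor, 7 were higher and 9 lower, 0 passed 1.5-fold, and the median was -0.01. Twist1, which holds back osteoblast maturation, rose by 0.43 (limma adjusted p = 0.0493). Tcf7l2, a Wnt-responsive factor, was higher by 0.48, and Dlx6, a partner of Dlx5, stood at -0.51. Of 13 late osteoblast and osteocyte genes, 9 were higher and 4 lower (median 0.06, or -0.04 after median centring). Ank, which carries pyrophosphate out of the cell, fell by 0.50 (limma adjusted p = 0.0328). Irx5, a homeobox gene of bone development, rose by 0.53 (limma adjusted p = 0.0485), and Smpd3, a sphingomyelinase needed for mineralisation, was higher by 0.50. With Dmp1, 2 members of that list fell and 1 rose, where limma called 1.49% of all genes lower and 1.31% higher.

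Collagen genes were mostly higher on day 7. Of 18 fibrillar and associated collagen genes above the floor, 12 were higher and 6 lower, 3 passed 1.5-fold upward (16.7%, against 1.16% of all genes) and 0 downward. The median was 0.20 in control and 0.21 under citalopram. Col1a1 rose by 0.68 (limma adjusted p = 0.039) and Col2a1 rose as given above. Col12a1, a fibril-associated collagen, was higher by 0.67 and Col1a2 by 0.57, while Col11a1 was at -0.20. Of 15 basement membrane genes, 11 were higher, with a median of 0.26. Besides Hspg2, Lamb2, the laminin beta-2 chain, rose by 0.81 (limma adjusted p = 0.012), while Col4a1, of the type IV collagen network, was at -0.30.

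The enzymes that process collagen did not show one direction. Of 19 such genes, 11 were higher and 8 lower (median 0.09, or -0.02 after median centring). P3h2, a prolyl 3-hydroxylase, rose by 0.73 (limma adjusted p = 0.0147), while Plod2, a lysyl hydroxylase for crosslinks, was at -0.45 and Adamts14, a procollagen protease, at -0.52. Of 16 crosslinking and elastic fibre genes, 13 were higher, 0 passed 1.5-fold, and the median was 0.11 (-0.00 after median centring) against -0.12 under citalopram. Fbln5, an elastic fibre organiser, was higher by 0.30 and the lysyl oxidase gene Loxl3 was at -0.22. limma called 0 of these 16.

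Proteoglycan and hyaluronan genes lay on both sides of 0. Of 16 above the floor, 10 were higher and 6 lower (median 0.07, or -0.03 after median centring). In each direction 2 were past 1.5-fold (12.5%, against 1.16% of all genes upward and 1.13% downward). Prelp, a collagen-binding proteoglycan, rose by 0.67 (limma adjusted p = 0.0164), and Has2, a hyaluronan synthase, fell by 0.54 (limma adjusted p = 0.0407). Aspn, asporin, went from 12.12 to 11.29 in control but differed by 0.19 under citalopram. Of 18 matricellular and adhesive glycoprotein genes, 11 were higher (median 0.19, or -0.02 with no floor), and limma called only Srpx2, lower. Matn2, a matrilin, was higher by 0.50 and Ccn4, a Wnt-induced matricellular gene, was at -0.43. Of 22 matrix proteases and inhibitors, 11 were higher and 11 lower. Among these limma called 1 higher and 4 lower, where it called 1.31% and 1.49% of all genes. Next to Adamts5, which rose, 4 fell: Mmp13, collagenase 3 (by 0.71), Adam12 (by 0.58), Adam19 (by 0.41) and Plat, tissue plasminogen activator (by 0.41), with limma adjusted p from 0.0114 to 0.0488. Mmp13 was near the floor on both days, at 6.51 and 5.80.

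A list of genes that encode very large proteins was written after the values were seen, because Hspg2, Ahnak2 and several giant cytoskeletal genes stood among the higher ones. Of 127 members 119 were measured and 87 reached the floor. Of these, 79 were higher and 8 lower (47.2% of all genes were higher), and the median was 0.38 in control and 0.35 under citalopram. With no floor, 91 of 119 were higher, with a median of 0.25. Of the 87, 16 passed 1.5-fold upward (1.16% of all genes) and 0 downward, and limma called 22 higher (1.31% of all genes) and 0 lower. Because the list was chosen for high members, these counts describe it and support nothing. Lrp1, a large endocytic receptor, rose from 11.53 to 12.51 (limma adjusted p = 0.0454). Rnf213, a giant ubiquitin ligase, rose from 9.25 to 10.22 (limma adjusted p = 0.00523), and Dync1h1, the dynein heavy chain, from 10.40 to 11.31 (limma adjusted p = 0.00617). Syne2, a nuclear envelope spectrin-repeat protein gene, rose by 0.85, with its 4 features between 0.37 and 0.85, and Flnc, filamin C, by 0.67. Under the scalings tried, 71 to 79 of 87 members were above 0. These are the same arrays from which the list was chosen, so this too supports nothing. Whether transcript size had a part in the higher values of Hspg2, Col12a1 and other long matrix genes was not tested.

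Growth factor signalling held 3 genes that fell and 0 that rose, where limma called 1.49% of all genes lower and 1.31% higher. Of 39 genes of FGF, VEGF, PDGF and IGF signalling, 16 were higher and 23 lower, with a median of -0.05 in control and -0.19 under citalopram. Fgf2, a ligand that keeps osteoblast precursors dividing, fell 1.91-fold, from 10.76 to 9.83, with a fall by 1.18 under citalopram (limma adjusted p = 0.00398). Vegfa, which draws blood vessels into bone, fell 1.59-fold, from 10.61 to 9.94 (limma adjusted p = 0.0155). Dusp6, a phosphatase induced by ERK that limits it in turn, fell by 0.53 (limma adjusted p = 0.0278). Igfbp6, which sequesters IGF2, was higher by 0.41. Dusp5, another ERK phosphatase, fell by 0.81 (limma adjusted p = 0.0063). It was the only gene of the 28 immediate early and AP-1 genes that limma called; 15 of these were higher and 13 lower (median 0.05, or -0.09 after median centring).

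Of 28 Wnt signalling genes above the floor, 17 were higher and 11 lower (median 0.07, or -0.03 after median centring and -0.02 after quantile normalization). limma called 3 higher and 0 lower, where it called 1.31% and 1.49% of all genes. Besides Lrp4 these were the ligand gene Wnt10b, which favours osteoblasts over adipocytes (by 0.50, limma adjusted p = 0.0479), and the agonist gene Rspo2 (by 0.50, limma adjusted p = 0.0348). Wnt10a was higher by 0.56 in control and at -0.10 under citalopram. Of 33 BMP and TGF-beta signalling genes, 17 were higher and 16 lower (median 0.02, or -0.08 after median centring, and below 0 after the other scalings too). Tgfbr2, the TGF-beta type II receptor, rose by 0.56 (limma adjusted p = 0.0304), and Fstl3, an inhibitor of activin, fell by 0.65 (limma adjusted p = 0.0155). Id3, a BMP target, was higher by 0.65. Of 15 osteoclast-regulating factors, 10 were lower (median -0.15, or -0.01 with the floor at the 60th percentile, and -0.30 under citalopram). Tnfrsf11b, which encodes the decoy receptor osteoprotegerin, fell from 11.49 to 10.86 in control and by 1.18 under citalopram (limma adjusted p = 0.0175). Tnfsf11, its ligand RANKL, was at 7.05 and 7.16.

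Interferon-response genes were mostly higher on day 7. Of 20 above the floor, 16 were higher and 4 lower, where 47.2% of all genes were higher. Past 1.5-fold upward were 2 (10.0%, against 1.16% of all genes). The median was 0.22 (0.11 after median centring) and 0.15 under citalopram. Irf9, the DNA-binding part of the ISGF3 complex, was higher by 0.71 (limma adjusted p = 0.0592). Xaf1 was higher by 0.69 and Rtp4 by 0.53. Ifi35, an interferon-induced protein gene, rose by 0.49 in control and by 0.71 under citalopram (limma adjusted p = 0.0337). It was the only member called. The letters GAAA, then any pair of bases, then GAAA again, the core of the element that ISGF3 and IRF factors bind, were looked for on both strands from 250 bases before to 50 after each gene start. They were found in 6 of 16 of these genes with a promoter in the RefSeq table (37.5%), against 3.99% of all 27025 genes there. The members with a match were Stat2, Ifit3, Ifit1, B2m, Ifih1 and Bst2, with differences from 0.44 for Stat2 to -0.00 for Bst2. Their median was 0.14, against 0.22 for the members without a match. The upstream 250 bases of Stat2, the partner of Irf9 in ISGF3, and of Ifit3, an effector that it induces, are shown with matches in capitals (GRCm38.p6, 5′ to 3′ on the strand of the gene). The matches lie on the other strand and so show as TTTC around a pair of other bases.
Stat2 (chr10:128270248-128270497, plus strand): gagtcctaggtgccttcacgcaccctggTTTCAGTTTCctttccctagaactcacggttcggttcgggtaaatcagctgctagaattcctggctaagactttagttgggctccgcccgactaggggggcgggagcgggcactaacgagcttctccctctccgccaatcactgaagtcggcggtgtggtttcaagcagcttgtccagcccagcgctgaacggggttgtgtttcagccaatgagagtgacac
Ifit3 (chr19:34583279-34583528, plus strand): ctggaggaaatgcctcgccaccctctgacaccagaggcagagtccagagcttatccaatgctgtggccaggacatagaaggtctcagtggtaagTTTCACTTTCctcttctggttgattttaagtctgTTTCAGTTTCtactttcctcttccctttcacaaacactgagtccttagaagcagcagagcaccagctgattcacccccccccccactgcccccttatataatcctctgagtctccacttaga
Stat2 was at 8.73 and 9.17 and Ifit3 at 8.09 and 8.44 on control days 3 and 7. The match in Stat2 begins 222 bases before the gene start, and those in Ifit3 156 and 122 bases before it.

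Most lipid genes were higher on day 7 in control. Of 20 genes of cholesterol synthesis and uptake above the floor, 16 were higher, with a median of 0.20 (0.09 after median centring), whereas 19 of 20 were lower under citalopram (median -0.34). None passed 1.5-fold in control, and limma called 0. Idi1, Fdps and Sqle, enzyme genes of the pathway, differed by 0.45, 0.36 and 0.44 in control and by -0.45, -0.41 and -0.10 under citalopram. These pairs share no array, and the difference between them was not tested. The letters TCACNCCAC, one form of the sterol element, stood in the promoter of 1 of 16 genes (6.25%, against 1.44% of all genes). This was Hmgcs1, the HMG-CoA synthase gene, which was higher by 0.32. Of 19 fatty acid synthesis genes, 13 were higher (median 0.13, and -0.17 under citalopram), with Fasn, fatty acid synthase, at 0.46 and 0 called.

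Of 25 NRF2 antioxidant genes, 19 were higher (median 0.13, or 0.02 after median centring). Nqo1, a quinone reductase, rose by 0.59 (limma adjusted p = 0.039) and Abcc1, a pump for glutathione conjugates, by 0.58 (limma adjusted p = 0.0476). The letters TGACNNNGC, the core of the antioxidant element, stood in the promoter of 7 of 20 genes of this list, against 13.99% of all genes. Members with a match had a median difference of 0.128, against 0.120 for the members without a match. Chemokine and cytokine genes were split, 9 higher and 9 lower of 18 above the floor. Past 1.5-fold upward were 3 (16.7%, against 1.16% of all genes). These were Ccl2, a chemokine for monocytes, from 8.53 to 9.47, Ccl7, from 7.59 to 8.21, and Nfkbia, an NF-kappaB inhibitor, from 9.36 to 10.04. Under citalopram Ccl2 and Ccl7 were lower on day 7, by -0.95 and -0.76 as log2 differences, and limma called 0 genes of the list.

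Proliferation genes differed little between the days in untreated cells. Of 50 mitosis genes 27 were higher and 23 lower (median 0.01, or -0.10 after median centring), and of 40 S-phase genes 17 were higher and 23 lower (median -0.03). None of either list passed 1.5-fold. Under citalopram the same lists had medians of -0.30 and -0.25, with 46 of 50 and 35 of 40 lower. Birc5, survivin, rose by 0.45 (limma adjusted p = 0.0475) and was the only one of these genes called. Bub1, a spindle checkpoint kinase, was at -0.34 and Pola1, the DNA polymerase alpha subunit, at -0.49. Of 27 p53 and growth arrest genes 18 were higher (median 0.05, or -0.05 after median centring), with Gas1 at 0.58 and 0 called.

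Actin, SRF and YAP target genes included 30 above the floor, 16 higher and 14 lower (median 0.08, or -0.03 after median centring), with 3 past 1.5-fold downward (10.0%, against 1.13% of all genes) and 0 upward. Ankrd1, a YAP target, fell from 12.54 to 11.89 (limma adjusted p = 0.0139), beside Tnnt2 and Cotl1. Amotl2, which restrains YAP and is also its target, rose by 0.51 (limma adjusted p = 0.0354). Of 29 junction and adhesion genes, 14 were higher and 15 lower (median -0.00). Jam2, a junctional adhesion molecule, fell from 9.70 to 8.70 (limma adjusted p = 0.0063), and Itga8, the alpha-8 integrin, by 0.87 (limma adjusted p = 0.0155). Cldn1, a tight junction claudin, rose from 6.25 to 6.91 (limma adjusted p = 0.0155). Of 21 semaphorins, plexins and neuropilins, 8 were higher and 13 lower (median -0.03), and Sema3c, a secreted guidance cue, was higher by 0.81 in control and by 0.02 under citalopram. Of 10 serpin B genes 7 were higher (median 0.14), and Serpinb2, plasminogen activator inhibitor 2, fell by 0.66 (limma adjusted p = 0.0151).

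Metabolic and stress lists had small medians. Of 25 hypoxia and glycolysis genes 17 were higher (median 0.06, or -0.05 after median centring). Ndrg1, a hypoxia-responsive gene, rose by 0.72 (limma adjusted p = 0.0155) while Vegfa fell. Of 30 ATF4 and amino acid genes 21 were higher (0.06, or -0.05 after median centring), and Vldlr, a lipoprotein receptor, rose by 0.57 (limma adjusted p = 0.039). Of 35 ribosomal protein genes 24 were higher (0.13), and Rps14 rose by 0.66 (limma adjusted p = 0.0232). Ribosomal protein genes have many near-identical pseudogenes, so single values are uncertain. Of 38 oxidative phosphorylation genes 22 were higher (0.05, or -0.06 after median centring) and 0 were called. ER chaperone genes were split 12 to 12 of 24 (-0.00), heat shock chaperones had 10 of 15 lower (-0.07), and lysosomal genes 15 of 29 higher (0.00, or -0.10 after median centring, and below 0 after the other scalings too). Within these last 3 lists limma called only Ctsw.

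**Figure D5:**
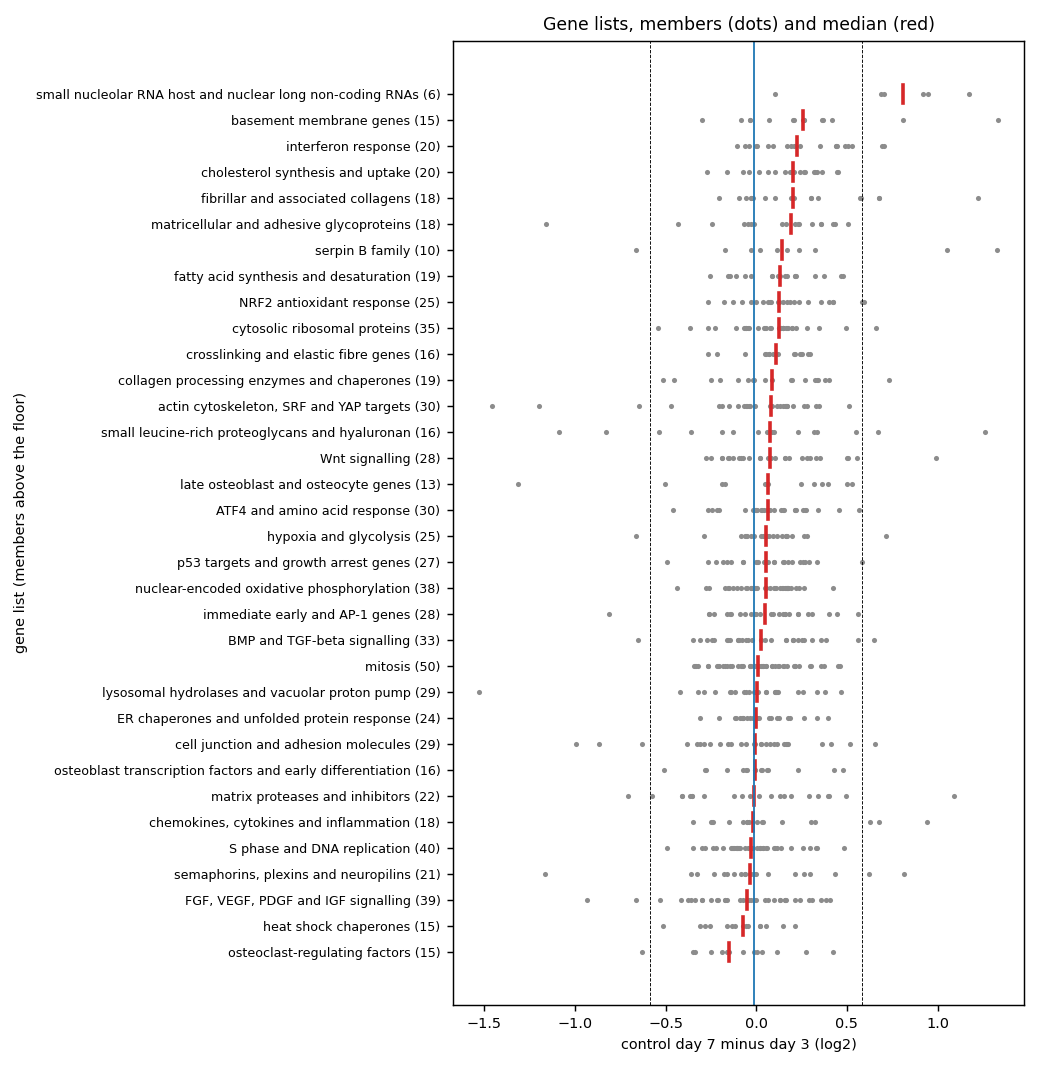
Control day 7 minus day 3 (log2, 1 array per day) for the members above the floor (dots) and the median (red) of 34 gene lists, with the blue line at the median of all genes (-0.01) and dashed lines at 1.5-fold. The 6 long non-coding RNAs of the host and nuclear RNA list have a median of 0.81 (0.10 with no floor) and the osteoclast-regulating factors one of -0.15 (-0.01 with the floor at the 60th percentile); 14 of the 24 medians above 0 fall below 0 after median centring.

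Markers of other cell types were mostly below the floor, except in the fibroblast, chondrocyte and myogenic lists. Fibroblast and mesenchymal markers, which the line shares, were bright: 9 of 11 reached the floor, 6 were higher, Vim was at 13.74 and 13.91, and S100a4 rose by 0.59 (limma adjusted p = 0.0348). Above the floor were 3 of 11 adipocyte, 9 of 16 chondrocyte, 8 of 14 myogenic, 4 of 16 macrophage and osteoclast, 1 of 9 endothelial, 5 of 13 epithelial and 1 of 8 lymphocyte and erythroid markers. Summed on the linear scale, adipocyte, endothelial and lymphocyte markers stayed near 583 and 589, 440 and 435, and 342 and 345 on control days 3 and 7. Of the 9 chondrocyte markers 3 were higher and 6 lower (median -0.05). Their sum went from 3327 to 4057, beside the rise of Col2a1, while Sox9, the cartilage regulator, was at 10.60 and 10.50 and Acan, aggrecan, was below the floor. Epithelial markers went from 1744 to 3864, nearly all of it Cdsn, with Krt5 and Krt14, the basal keratins, below the floor and Krt8 at 6.78 and 6.79. Myogenic markers went from 2702 to 1910 with Tnnt2. Myog, myogenin, was below the floor, while Acta1 was at 8.96 and 8.75 and Myod1 at 5.85 and 6.13 on control days 3 and 7. Macrophage and osteoclast markers went from 3009 to 2467, led by Ctsk, cathepsin K, at 10.69 and 10.27. The part of these cell types in the results was not tested.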

How the data were processed

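Gene expression was measured on Affymetrix arrays in MC3T3-E1 cells, 1 array for each of 4 groups. Trizol was used to extract the RNA, of which 250 ng went into biotinylated cDNA, per the labels' protocols. The values are log2 expression values deposited by the authors, used as given. The log base was inferred from their range. Partek was used, per the submitters' processing notes, while its background correction, normalization and probe summary were not given in the sources used here. Array medians over all features were 6.50 and 6.60 for control days 3 and 7, and 6.50 and 6.66 for citalopram on those days. Whether the arrays had been brought to a common scale is not known, and unequal scaling would shift every difference.

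Of the features, 21789 carried 1 gene symbol, 1621 several and 12146 none. Only the first were named, and 21698 of their Entrez numbers were found in a RefSeq table (GRCm38.p6). For the 999 genes with several features the brightest was kept, and the range over features is given for some of the genes named. The floor was the 40th percentile of genes on an array (5.95 to 6.01). Differences were taken between arrays and counted at 2-fold and 1.5-fold, with no p-value. limma 3.58.1 in R 4.3.3 (lmFit and eBayes) gave the test of day, checked on simulated data, and calls are at an adjusted p under 0.05. Other steps used Python 3.11.15, pandas 2.3.3, numpy 2.4.6 and scipy 1.17.1.

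The members, the 34 gene lists and the 9 marker lists were chosen with earlier results of these data known, and 104 list members are not analysed here. Named genes are the 15 highest and 15 lowest by the control difference (leaving out symbols of predicted, olfactory, vomeronasal, microRNA and small nucleolar RNA genes), the 3 highest and 3 lowest and every called member of each list, the 5 highest and lowest microRNA and small nucleolar RNA genes, all pre-osteoblast markers and the brightest marker of other cell types. Other genes named as matches, hosts, defining markers or further small RNAs were chosen after their values were seen. Alternatives were 3 scalings, 2 other floors, the mean over features, and other limma models.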

Additional observations from a re-analysis of the deposited data

Results flagged for a closer look

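The chemokine genes Ccl2 and Ccl7 passed 1.5-fold in opposite directions in the control and citalopram pairs. Ccl2 was higher by 0.94 on day 7 in control (8.53 and 9.47) and differed by -0.95 under citalopram (9.04 and 8.09). Ccl7 was higher by 0.63 in control (7.59 and 8.21) and differed by -0.76 under citalopram (8.13 and 7.37). In both cases the citalopram day 3 value lay above control day 3 and the citalopram day 7 value below control day 7. With 1 array per group the difference between the pairs was not tested.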

How the results depend on the processing

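Counts of called genes depended on the settings. After quantile normalization limma called 459 genes higher and 1085 lower, after cyclic loess 436 and 582, and after median centring 2057 lower. With no floor it called 99 and 91, and with the floor at the 60th percentile 299 and 445. Day alone, without the treatment term, gave 44 and 24. Leaving 1 array out of that fit, so that 1 day keeps a lone array assumed to vary like the other, gave 23 to 421 higher and 6 to 546 lower: 31 and 12 without control day 3, 421 and 546 without control day 7, 23 and 6 without citalopram day 3, and 94 and 117 without citalopram day 7. Median centring changed the counts of single differences to 26 genes at least 2-fold lower, and to 89 higher and 294 lower at 1.5-fold. With protein-coding genes only, chosen after seeing the data, 10 were at least 2-fold and 88 at least 1.5-fold higher. The cause of these shifts was not tested, apart from the genes left out or added. The medians of collagen processing (-0.0192) and of crosslinking and elastic fibre genes (-0.0014) turned negative after median centring. With no floor, that of matricellular genes became -0.0225 and that of macrophage and osteoclast markers 0.0182. All 16 genes at least 2-fold lower stayed so under the 3 scalings, and 22 to 31 of the 32 higher ones did. Of 297 named genes, 21 past 1.5-fold came below it after median centring, 7 after quantile normalization and 2 after cyclic loess, while 10, 5 and 2 newly passed it in the same direction. The labels give no replicate numbers, so no block by replicate was fitted, and the treatment term sets the days against each other within each treatment. The signal over background limits genes near the floor, such as Alpl, Mmp13 and most microRNAs.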

Other observations

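Genes of the zinc finger family with a Zfp symbol, many of them repressors of transcription, were looked at after their values were seen. Of 299 above the floor, 85 were higher on day 7 in control (47.2% of all genes were), with a median of -0.09. At least 1.5-fold lower were 10 (1.13% of all genes), and limma called 7 lower (1.49% of all genes) and 0 higher. Under the 3 scalings 34 to 81 of the 299 were higher, where 27.3% to 45.4% of all genes were. In the citalopram pair the median was 0.02, and the difference between the pairs was not tested.

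Of 13767 features that carried no symbol or several, 8579 reached the floor. At least 2-fold higher were 361 of these (4.21%, against 0.262% of the named genes). At least 2-fold lower were 49 (0.571%, against 0.131%). The differences of these 8579 features ran from -1.75 to 2.54, with a median of 0.10, against -0.01 for the named genes above the floor. That median of 0.10 is smaller than the shift of 0.108 that median centring removes. Which transcripts they measure is not analysed here.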
